A study of Mus musculus with 6 samples.

Results

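The 35 genes described here are assembly factors of the mitochondrial respiratory chain, that is, proteins that help to build complexes I, III and IV but are not part of the finished complexes. They were chosen by name, as 13 factors of complex I, 6 of complex III, 15 of complex IV and the insertase *Oxa1l*, and each was found once among the 55774 rows of the deposited expression table by its Ensembl identifier. RNA had been sequenced from 6 pools of 10 mouse blastocysts, 3 pools per group. All embryos were wild-type (WT), came from ICR females, and were cultured from the two-cell stage in CZB medium to which extracellular vesicles from human Fallopian tubes had been added. The oEV-EMT group received vesicles of women with endometriosis. According to the labels, the oEV-ctrl group received vesicles of women with uterine fibroids, whereas the methods of the study name a different gynaecological condition for these donors. Both groups thus carry human vesicles, and no group without vesicles is among these libraries. The sources used here do not tie donors to libraries, so the p-values measure the spread between pools of embryos.

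Complexes I, III and IV pass electrons from NADH to oxygen and pump protons across the inner mitochondrial membrane. Their core subunits are encoded partly in mitochondrial DNA and partly in the nucleus, and have to meet in the membrane together with hemes, copper, flavin and iron-sulfur clusters. Assembly factors hold unfinished modules, insert these cofactors and leave when the complex is complete, and inherited loss of many of them causes mitochondrial disease. The blastocyst is the stage at which the mouse embryo comes to depend more on oxidative phosphorylation. A transcript level says nothing of how much of a complex is assembled.

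The authors deposited FPKM, which relate the fragments of a gene to its length and to the size of the library, so that levels of different genes can be set side by side per length. The 35 members were all among the 11924 genes tested, which reached 1 FPKM in 3 or more libraries. One unannotated entry held 15.3% to 19.0% of the summed FPKM in oEV-EMT and 19.7% to 31.5% in oEV-ctrl. The depth, derived from the smallest steps between low values, was between 17.8 and 37.0 fragments per FPKM and kilobase, a 2.08-fold range that was not aligned with the groups. At this depth 34 of the 35 members rested on an estimated 100 fragments or more in every library, the exception being *Sco2* with as few as 34.6. Trophectoderm, epiblast and primitive endoderm markers, the cell types of a blastocyst, were all above the filter, with 8, 6 and 6 genes of each. Of 6 cumulus or granulosa markers 3 were at 0 in every library, and the summed markers of these cells, of oviduct epithelium and of leukocytes stayed at or under 2.07 FPKM.

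The stretches of RefSeq promoter sequence below (GRCm38.p6) belong to the members on which the comparison and the motif search turned. Each is 100 bases long, is written 5′ to 3′ on the strand of the gene and lies upstream of the RefSeq start. None lies on an annotated exon, and that of *Cox19* falls in an intron of a longer transcript of the same gene. *Cox19* and *Uqcc1* had the largest fold changes of their complexes and hold neither motif. *Timmdc1* holds the most copies of the ETS motif CCGGAAG, and *Oxa1l* and *Uqcc2* hold the palindromic motif of nuclear respiratory factor NRF1. Capitals mark a match on either strand, so that CTTCCGG is the ETS motif read on the other strand.
*Cox19* (chr5:139345234-139345333, minus strand): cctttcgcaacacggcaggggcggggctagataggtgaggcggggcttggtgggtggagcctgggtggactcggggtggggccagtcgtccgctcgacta
*Uqcc1* (chr2:155930311-155930410, minus strand): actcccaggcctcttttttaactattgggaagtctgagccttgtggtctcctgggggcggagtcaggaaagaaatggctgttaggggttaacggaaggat
*Timmdc1* (chr16:38522664-38522763, minus strand): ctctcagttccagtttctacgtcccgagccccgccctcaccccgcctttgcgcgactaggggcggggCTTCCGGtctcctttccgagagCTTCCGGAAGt
*Oxa1l* (chr14:54360734-54360833, plus strand): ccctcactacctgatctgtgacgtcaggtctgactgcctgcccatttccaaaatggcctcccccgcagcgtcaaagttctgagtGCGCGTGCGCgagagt
*Uqcc2* (chr17:27133917-27134016, minus strand): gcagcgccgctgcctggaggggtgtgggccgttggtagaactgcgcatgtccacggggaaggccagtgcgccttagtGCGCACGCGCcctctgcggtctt

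Single values of the members reached from 1.24 FPKM (*Sco2*, a copper factor) to 1152 FPKM (*Cox17*). The median of their mean FPKM was 25.7, against 7.74 over all tested genes, with 8 members above 50 and 8 under 10. By complex, the median was 25.1 for the factors of complex I, 10.8 for those of complex III and 34.6 for those of complex IV. The nuclear subunits of the same complexes stood far higher, at 280 FPKM for complex I, 301 for complex III and 2015 for complex IV, and the mitochondrially encoded subunits at 2517. The median over all 35 thus lay above that of the tested genes and below those of the subunits, but *Foxred1*, *Lyrm7*, *Ttc19*, *Cox15* and *Sco2* were under 7.74. *Cox17*, the small copper chaperone, reached the range of the subunits and alone held from 35% to 46.6% of the summed FPKM of the 35 members in each library.

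**Figure D1:**
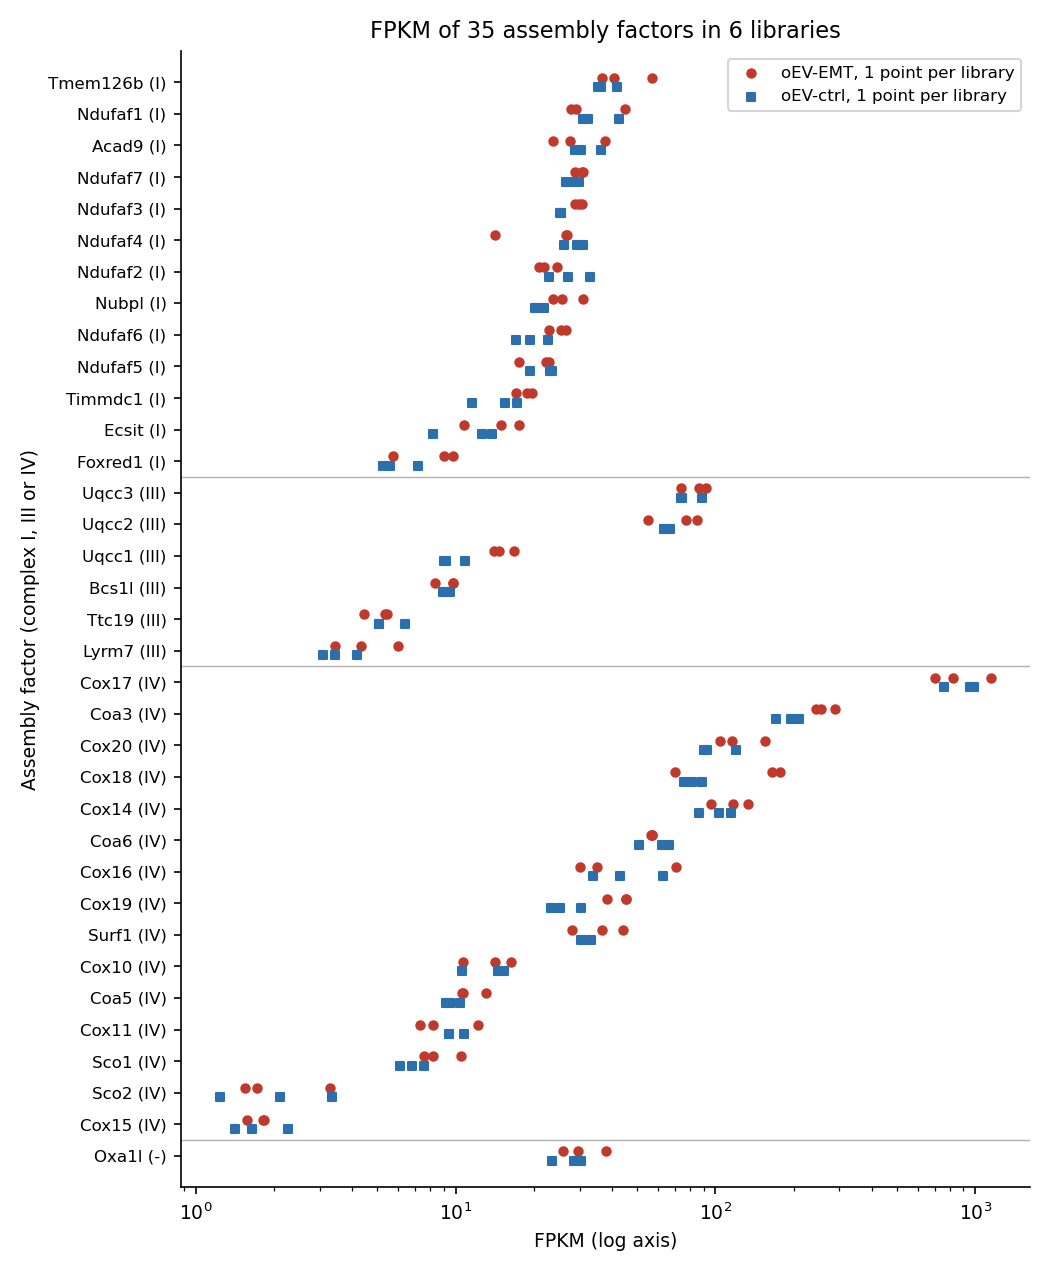
FPKM of the 35 assembly factors on a log axis, 1 point per library (circles oEV-EMT, squares oEV-ctrl), ordered by mean level within complexes I, III and IV with *Oxa1l* last. *Cox17* lies highest at 701 to 1152 FPKM, *Sco2* and *Cox15* lowest, and in most rows circles and squares are interleaved.

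To ask whether the assembly factors differed between the vesicle groups, log2(FPKM + 1) was fitted with limma over all 11924 genes. With Benjamini-Hochberg adjustment over all of these, 0 of 35 members came to 0.05 or less, and neither did any other gene (0% of 11924). The adjusted p-values of the members lay between 0.184 and 0.993. At an unadjusted p of at most 0.05, 3 members were higher in oEV-EMT (8.57%) and 0 lower, while over all tested genes 12.8% were higher and 2.55% lower. All 3 oEV-EMT libraries were above all 3 oEV-ctrl libraries for 8 members (22.9%), beside 18.1% of all tested genes, and the reverse held for 0 members, beside 4.34%. Both counts of the members were close to the background in the same direction.

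The deposited values as a whole leaned towards oEV-EMT, and over all tested genes the log2 fold change had a median of 0.17. The median of the 35 members was also 0.17. Fold changes of 23 members were above 0 and of 12 below it, but against the median of all genes 17 were above and 18 below. The members ranged from -0.39 (*Ndufaf4*) to 0.69 (*Cox19*) on the log2 scale. For 32 of 35 members the 95% confidence interval of the log2 fold change stayed within -1 and 1, the fold threshold of the study, and it reached past 1 for *Uqcc1*, *Cox19* and *Cox18*. On this scale the changes of members with low FPKM are understated.

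**Figure D2:**
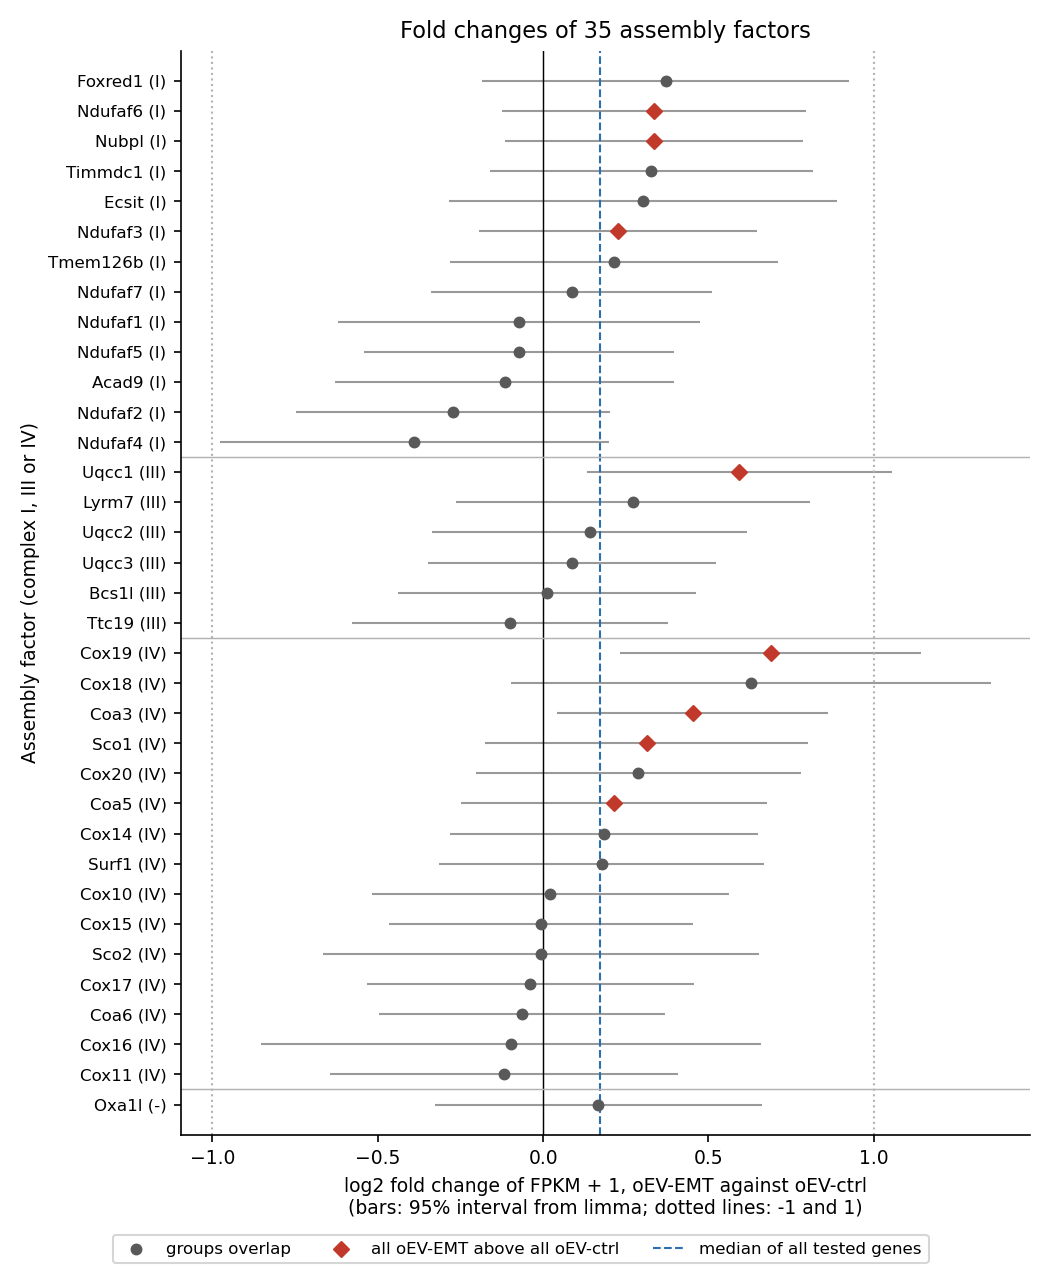
Log2 fold change of FPKM + 1, oEV-EMT against oEV-ctrl, for each of the 35 assembly factors, with bars for the 95% confidence interval from limma. Diamonds mark the 8 members without overlap between groups; points lie on both sides of the dashed median of all tested genes at 0.17, and 3 intervals reach past the dotted line at 1.

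When the libraries were rescaled by the median of gene-wise ratios, the median over all genes moved to 0.01 and the split of the members changed. After rescaling, 3 members were without overlap and higher in oEV-EMT (*Uqcc1*, *Cox19* and *Sco1*), and 3 were without overlap and lower (*Ndufaf2*, *Ndufaf4* and *Bcs1l*). Over all genes, 9.81% were then without overlap and higher and 10.2% lower. At an unadjusted p of at most 0.05 the rescaled values gave 2 members higher (*Uqcc1* and *Cox19*) and 1 lower (*Ndufaf2*), beside 6.44% and 6.41% of all genes. Which of the 8 members stood clear of the control libraries therefore depended on the scaling, and 8 of the 23 members with a fold change above 0 went below it.

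Some markers of the epiblast, the pluripotent cells of the blastocyst, moved with the groups. The summed FPKM of the 6 was 105, 86.7 and 81.8 in oEV-EMT against 41.0, 44.2 and 62.3 in oEV-ctrl, without overlap, and this sum was carried by *Nanog* and *Pou5f1*. These genes and *Fgf4* had no overlap and were higher, while *Sox2*, *Klf2* and *Esrrb* overlapped (log2 fold changes of -0.32, 0.07 and -0.06), so that 3 of 6 lay above and 3 below the median of all genes. The summed trophectoderm markers overlapped, at 4570 to 6349 against 5177 to 5963 FPKM, with 0 of 8 genes without overlap. The summed primitive endoderm markers, mostly *Dab2*, overlapped too, but 2 of the 6 (*Gata4* and *Sox7*) had no overlap and were higher. Over all tested genes 18.1% were without overlap and higher as deposited. With rescaling, 3 of the 6 epiblast markers stayed without overlap and higher. Of the 6 primitive endoderm markers 1 was then higher and 1 lower, beside 9.81% and 10.2% of all tested genes. Of the cumulus or granulosa markers *Amhr2* made up nearly the whole sum, which was 1.03 to 2.07 FPKM in oEV-EMT against 0.488 to 0.761 in oEV-ctrl, without overlap. *Foxl2* and *Inha* were at 0 in every oEV-EMT library and at most 0.0311 FPKM in oEV-ctrl, and *Fshr*, *Cyp19a1* and *Amh* were at 0 throughout. The part of these cells in the values of the assembly factors was not tested. In pools of whole blastocysts, fewer cells of a type and less RNA per cell cannot be told apart.

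Complex I, the NADH dehydrogenase, is built from a membrane arm and a matrix arm. Its 13 factors had a median log2 fold change of 0.21, which is 0.04 above that of all genes, with 8 values above 0 and 5 below. As deposited, 3 of 13 were without overlap and higher, beside 18.1% of all tested genes, and after rescaling 0 were higher and 2 lower, beside 9.81% and 10.2%. The adjusted p-values were at least 0.458 for all 13.

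The membrane arm is raised by the MCIA complex, which comprises *Ndufaf1*, *Acad9* (a relative of the acyl-CoA dehydrogenases), *Ecsit*, *Tmem126b* and *Timmdc1*. None of the 5 was without overlap, and their log2 fold changes lay between -0.12 and 0.33. *Tmem126b*, an integral membrane protein and the most abundant factor of complex I, read 40.7, 36.8 and 56.9 FPKM in oEV-EMT and 36.4, 41.8 and 35.5 in oEV-ctrl. The ranges overlapped, since only the third oEV-EMT library stood above every control (log2 fold change 0.21, SE 0.22, limma adjusted p = 0.677).

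The Q-module, the part of the matrix arm that binds ubiquinone, is handled by *Ndufaf3* to *Ndufaf7*. *Ndufaf3*, which binds this module together with *Ndufaf4*, was at 28.8, 30.7 and 30.0 FPKM in oEV-EMT and at 25.4, 25.2 and 25.6 in oEV-ctrl. Its libraries were tight within each group and did not overlap, but the difference was small, 0.23 on the log2 scale (SE 0.19, limma adjusted p = 0.598), and after rescaling the groups overlapped. *Ndufaf6*, an early factor related to phytoene synthases, was at 22.9, 26.7 and 25.3 FPKM in oEV-EMT and at 22.7, 17 and 19.4 in oEV-ctrl. Here the first libraries of both groups nearly touched (0.34, SE 0.21, adjusted p = 0.465).

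*Ndufaf4* had the lowest fold change of all 35 members. Its FPKM was 26.9, 14.2 and 26.6 in oEV-EMT and 29.5, 26.2 and 30.9 in oEV-ctrl. The second oEV-EMT library was far under the others, whereas the first and the third were within the control range (-0.39, SE 0.27, adjusted p = 0.506). Without that library the log2 fold change was -0.10, whereas after median-of-ratios rescaling it was -0.58 and the groups no longer overlapped. *Ndufaf5*, which hydroxylates an arginine of the subunit NDUFS7, and *Ndufaf7*, a methyltransferase of early assembly, had log2 fold changes of -0.07 and 0.09, with overlap.

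*Nubpl*, which delivers iron-sulfur clusters to the matrix arm, was at 23.7, 25.8 and 31.0 FPKM in oEV-EMT and at 20.3, 20.7 and 21.9 in oEV-ctrl. The control libraries were close together and all below oEV-EMT (0.33, SE 0.20, limma adjusted p = 0.458), but the groups overlapped after rescaling. *Foxred1*, a flavoprotein of late assembly, had the highest fold change and the lowest level of complex I. It was at 9.78, 8.99 and 5.76 FPKM in oEV-EMT against 5.59, 5.27 and 7.16 in oEV-ctrl, so that the third oEV-EMT library lay within the control range (0.37, SE 0.25, adjusted p = 0.502). *Ndufaf2*, a late factor that is exchanged for a subunit related to it, was at 21.9, 21 and 24.6 FPKM in oEV-EMT and 22.9, 27.1 and 32.8 in oEV-ctrl, which overlapped as deposited and not after rescaling.

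Complex III, the cytochrome bc1 complex, had 6 factors with a median log2 fold change of 0.11, which is 0.06 under that of all genes. Of these, 5 were above 0 and 1 below, and 1 of 6 was without overlap and higher, beside 18.1% of all tested genes. That member was *Uqcc1*, which with *Uqcc2* binds newly made cytochrome b, the only mitochondrially encoded subunit of this complex. *Uqcc1* (chr2:155846894-155930310, minus strand) was at 16.8, 14.7 and 14.0 FPKM in oEV-EMT and at 9.05, 9.22 and 10.9 in oEV-ctrl. Every oEV-EMT library was well above every oEV-ctrl library, a 1.56-fold ratio of the means (log2 fold change 0.59, SE 0.21, limma unadjusted p = 0.0167, adjusted p = 0.232). After rescaling the values were 14.5, 13.5 and 14.1 against 10.0, 10.1 and 10.8, again without overlap. Its partner *Uqcc2* overlapped, with 84.7, 76.9 and 55.2 FPKM against 63.3, 66.7 and 63.2 (0.14, SE 0.21, adjusted p = 0.782).

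*Uqcc3*, which acts after *Uqcc1* and *Uqcc2* on the same intermediate, was the most abundant factor of complex III. It was at 73.5, 86.6 and 91.9 FPKM in oEV-EMT and at 89.0, 73.6 and 74.4 in oEV-ctrl. The ranges covered each other almost entirely (0.09, SE 0.20, adjusted p = 0.856), and under other scalings its sign changed.

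The Rieske iron-sulfur protein is the last catalytic subunit to enter complex III. *Lyrm7* holds it in the matrix, *Bcs1l* moves it across the membrane and *Ttc19* clears the fragments left after its cleavage. *Lyrm7*, the lowest of the complex, was at 3.44, 4.33 and 6.0 FPKM in oEV-EMT and at 3.10, 4.18 and 3.42 in oEV-ctrl, with overlap (0.27, SE 0.24, limma adjusted p = 0.617). *Bcs1l* overlapped as well at 9.73, 9.78 and 8.31 against 8.96, 9.07 and 9.49 FPKM (0.01, SE 0.20, adjusted p = 0.984). *Ttc19* had the lowest fold change of complex III, with 5.33, 4.44 and 5.43 FPKM against 6.39, 5.05 and 5.09 (-0.10, SE 0.22, adjusted p = 0.850). Thus none of the Rieske factors stood apart between groups in the deposited values. After rescaling *Bcs1l* was at 8.42, 8.96 and 8.36 in oEV-EMT against 9.90, 9.97 and 9.41 in oEV-ctrl, without overlap and lower. Of the 6 factors of complex III, 1 was then without overlap and higher and 1 lower, beside 9.81% and 10.2% of all tested genes.

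Complex IV, cytochrome c oxidase, carries hemes and copper centres in the mitochondrially encoded subunits COX1 and COX2. Its 15 factors had a median log2 fold change of 0.18, which is 0.01 above that of all genes. Of these, 9 were above 0 and 6 below. As deposited, 4 of 15 were without overlap and higher, beside 18.1% of all tested genes, and after rescaling 2 were, beside 9.81%.

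Copper delivery is the task of *Cox17*, *Cox11*, *Sco1*, *Sco2*, *Cox19* and *Coa6*. *Cox19* (chr5:139336189-139351418, minus strand), an intermembrane space protein that assists *Cox11*, had the largest fold change of all members. It was at 45.3, 38.2 and 45.1 FPKM in oEV-EMT and at 25.3, 23.3 and 30.3 in oEV-ctrl. All oEV-EMT libraries were clearly above the controls, a 1.63-fold ratio of the means (log2 fold change 0.69, SE 0.21, limma unadjusted p = 0.00699, adjusted p = 0.184). An exact two-sided permutation test of this gene gave p = 0.1, the smallest that 3 libraries against 3 allow. After rescaling it was at 39.2, 35 and 45.4 against 27.9, 25.6 and 30.1, without overlap.

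*Cox11* itself places copper in COX1. Its FPKM was 7.28, 12.1 and 8.18 in oEV-EMT and 9.43, 10.7 and 9.42 in oEV-ctrl, so that the oEV-EMT libraries lay on both sides of the controls (-0.12, SE 0.24, limma adjusted p = 0.836). *Sco1*, which with *Sco2* supplies copper to COX2, was at 10.5, 8.19 and 7.58 FPKM in oEV-EMT and at 6.11, 6.79 and 7.53 in oEV-ctrl. The groups were without overlap before and after rescaling, but by a narrow margin, 7.58 against 7.53 as deposited and 7.51 against 7.47 after rescaling (0.31, SE 0.22, adjusted p = 0.519). *Sco2* overlapped at 3.28, 1.54 and 1.72 against 2.10, 1.24 and 3.33 FPKM.

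*Cox17*, which hands copper to both branches, was at 701, 819 and 1152 FPKM in oEV-EMT and at 956, 988 and 759 in oEV-ctrl. Its groups overlapped widely and its means were nearly equal (-0.04, 95% confidence interval -0.53 to 0.46, limma adjusted p = 0.949). *Coa6*, which acts on the copper site of COX2, was at 56.5, 56.9 and 56.9 FPKM in oEV-EMT within the control values of 62.3, 50.8 and 66.0. Of the 6 copper factors, 2 were without overlap and higher, beside the same 18.1%, and the median log2 fold change was -0.02.

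**Figure D3:**
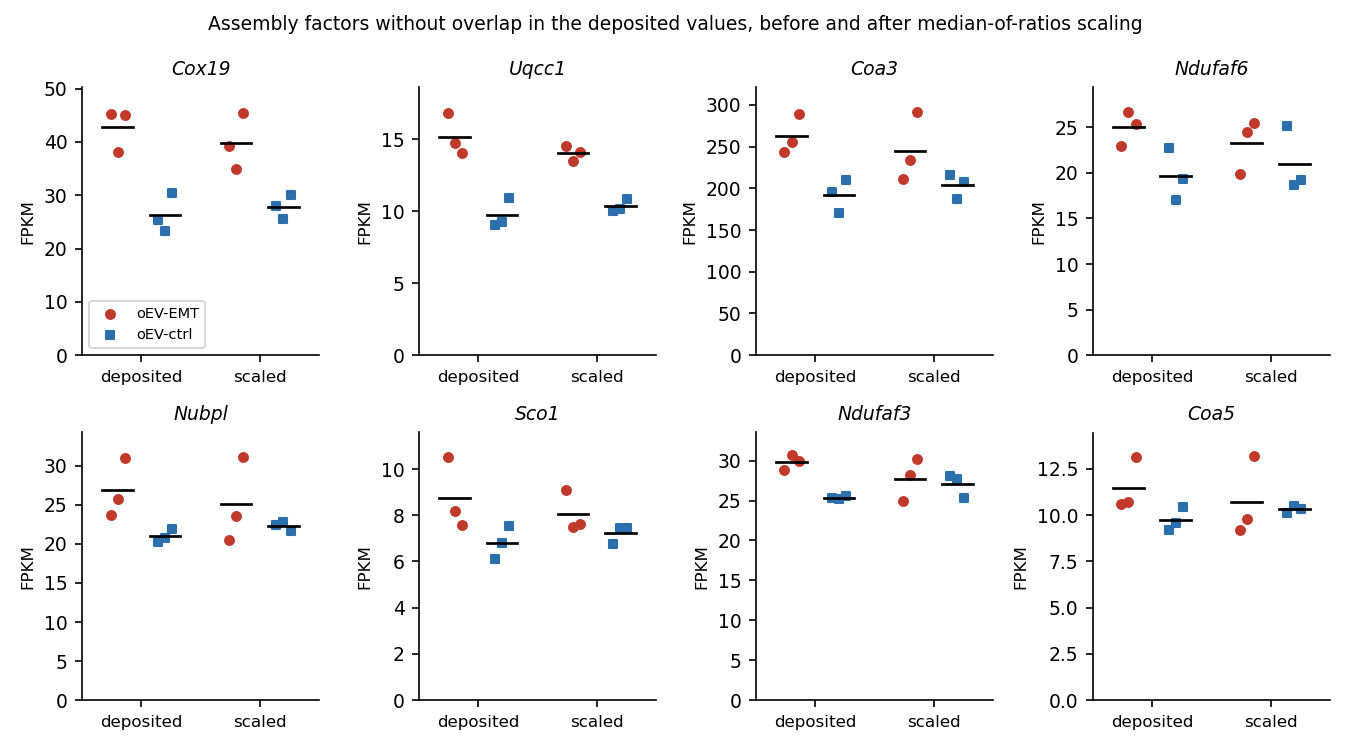
FPKM of the 8 assembly factors without overlap in the deposited values, 1 point per library with a bar at the group mean, as deposited and after median-of-ratios scaling, on axes that start at 0. Circles (oEV-EMT) and squares (oEV-ctrl) stay apart after scaling for *Cox19*, *Uqcc1* and *Sco1*, and mix for the other 5.

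Newly made COX1 is bound by *Cox14* and *Coa3* and passed on with the help of *Surf1*. *Coa3* was at 244, 255 and 289 FPKM in oEV-EMT and at 195, 171 and 210 in oEV-ctrl. The groups did not overlap, with a 1.37-fold ratio of the means (0.45, SE 0.19, limma unadjusted p = 0.0341, adjusted p = 0.287). After rescaling the first oEV-EMT library, at 211, fell under the highest control, at 216. *Cox14* and *Surf1* had log2 fold changes of 0.18 and 0.18, with overlap.

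COX2 has its chaperones *Cox18*, *Cox20* and *Cox16*. *Cox18* was singled out after its values were seen, because its interval was among those that reached past 1. It was at 69.9, 165 and 177 FPKM in oEV-EMT and at 75.5, 81.4 and 89.0 in oEV-ctrl. The second and the third oEV-EMT libraries were far above every control, while the first was below them all (0.63, SE 0.33, limma adjusted p = 0.383). *Cox20* and *Cox16* had log2 fold changes of 0.29 and -0.10, with overlap.

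Heme a is made by *Cox10* and *Cox15*, which act in sequence. *Cox15* had the lowest mean level of all complex IV factors, with 1.57, 1.84 and 1.82 FPKM in oEV-EMT and 1.42, 1.64 and 2.26 in oEV-ctrl, and overlapped (-0.01, SE 0.21, limma adjusted p = 0.991). *Cox10* stood higher at 10.5 to 16.4 FPKM and overlapped too (0.02, SE 0.24). *Coa5*, a small protein whose precise role is not settled, was without overlap at 10.6, 10.7 and 13.1 against 9.17, 9.56 and 10.4 FPKM, with a narrow gap between the groups (0.21, SE 0.21, adjusted p = 0.650).

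*Oxa1l*, the insertase that places mitochondrially made proteins into the inner membrane and so serves several complexes, was at 38.1, 26 and 29.5 FPKM in oEV-EMT and at 23.5, 28.6 and 30.5 in oEV-ctrl. The groups overlapped and the log2 fold change of 0.17 (SE 0.22, limma adjusted p = 0.749) was that of the median of all genes.

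The assembly factors were then set beside the subunits of the same complexes. Relative to the median of all tested genes, the median log2 fold change was 0.04 for the factors and -0.22 for the 37 nuclear subunits of complex I, -0.06 and -0.14 (9 subunits) for complex III, and 0.01 and -0.35 (11 subunits) for complex IV. Below the median of all genes were 29 of 37, 6 of 9 and 10 of 11 nuclear subunits, beside 6 of 13, 4 of 6 and 7 of 15 factors. The 11 mitochondrially encoded subunits were all below it, with a median of -0.96. All oEV-EMT libraries were below all oEV-ctrl libraries for 4 of 37, 1 of 9 and 4 of 11 nuclear and for 9 of 11 mitochondrially encoded subunits, and for 0 of the 35 factors, beside 4.34% of all tested genes. The reverse held for 1 nuclear subunit of each complex. After rescaling, 8, 2, 5 and 10 subunits of these lists and 3 of the 35 factors were without overlap and lower, beside 10.2%. None of these subunits had an adjusted p of at most 0.05, and the difference between factors and subunits was not tested. Within the oEV-EMT libraries the median of the 35 members, each gene taken against its own mean and then against all genes, was -0.15, -0.02 and 0.11, and within the oEV-ctrl libraries 0.04, -0.01 and -0.04, so that the oEV-EMT libraries spread on both sides of the controls. The same medians overlapped between groups for the nuclear subunits of complex I, at -0.31, -0.0016 and 0.04 against 0.14, 0.23 and -0.01, and of complex IV, at -0.35, -0.32 and 0.11 against 0.17, 0.38 and 0.09. They did not overlap for the mitochondrially encoded subunits, at -0.74, -0.45 and -0.24 in oEV-EMT against 0.71, 0.50 and 0.17 in oEV-ctrl.

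**Figure D4:**
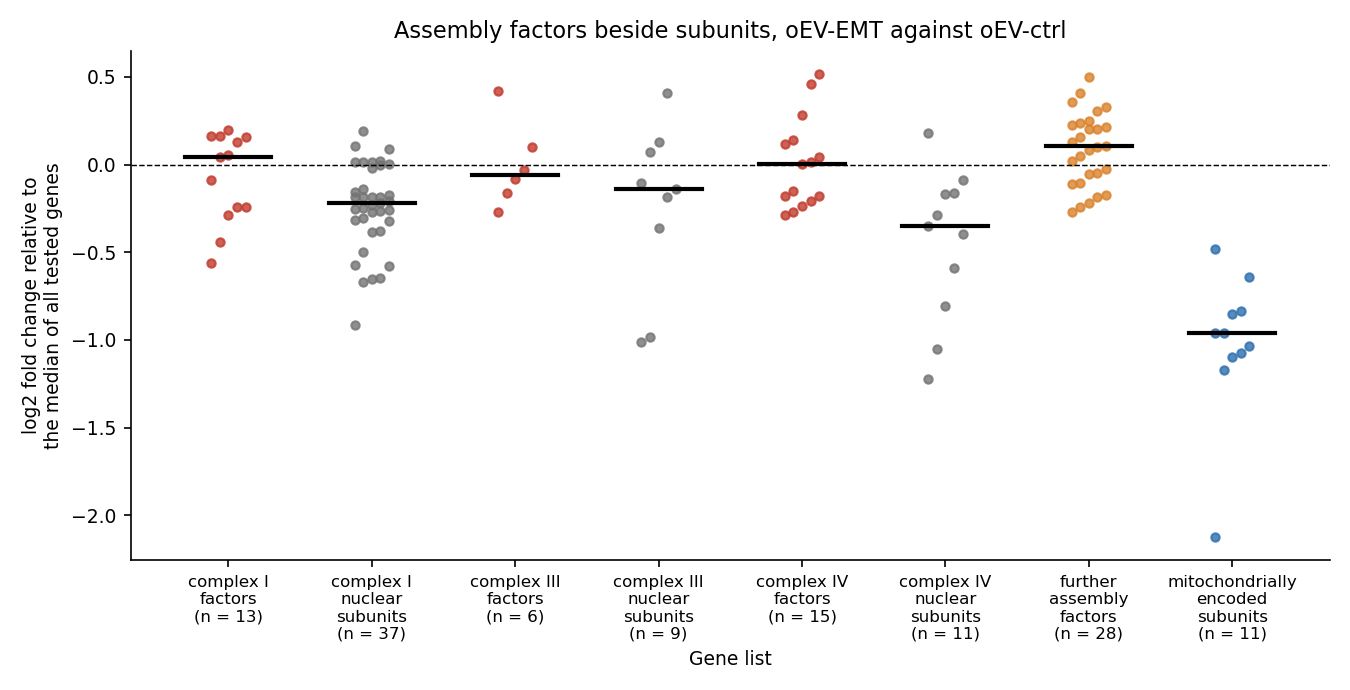
Log2 fold change relative to the median of all tested genes, oEV-EMT against oEV-ctrl, 1 point per gene with a bar at the median of each list. The factors of complexes I, III and IV have medians of 0.04, -0.06 and 0.01 and the nuclear subunits -0.22, -0.14 and -0.35, while the 11 mitochondrially encoded subunits all lie below 0.

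Another 31 genes that were not among the 35 were listed by symbol as further assembly factors, and 28 of them passed the filter. The list was wider in kind than the 35. It also held iron-sulfur cluster genes (*Nfs1*, *Iscu*, *Nfu1*, *Iba57*, *Isca1* and *Isca2*) and *Chchd4*, *Aifm1*, *Hccs*, *Lrpprc* and *Taco1*. The median of their log2 fold changes was 0.28, which is 0.10 above that of all genes. By unadjusted p, 4 were higher and 0 lower, and 10 were without overlap and higher and 0 lower, beside 12.8% and 18.1% of all tested genes in the higher direction. The 4 by unadjusted p were the assembly factors *Cmc2* and *Coa4* and the iron-sulfur cluster genes *Iscu* and *Nfu1*. Each of them was also among the 10 without overlap. After rescaling 1 was without overlap and higher and 2 lower, beside 9.81% and 10.2%, and 0 were higher by unadjusted p. As with the 35, 0 had an adjusted p of at most 0.05.

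The median coefficient of variation of the members was 17.6% within oEV-EMT and 13.2% within oEV-ctrl, against 24.4% and 18.8% over all tested genes, which on the whole have lower FPKM. Among the oEV-EMT libraries the first was the lowest for 19 of the 35 members, and among the oEV-ctrl libraries the third was the highest for 21. These are ranks of the deposited values, and the same ranks were not counted over all tested genes. The median-of-ratios factors that the values are divided by were 1.16, 1.09 and 0.99 in oEV-EMT. In oEV-ctrl they were 0.90, 0.91 and 1.01. Across the 35 members the log2 fold change had little rank relation to transcript length (Spearman rho 0.06), protein length (-0.03) and mean FPKM (0.06). These are descriptions over genes that share the same 6 libraries. Transcript length is that of the shortest annotated coding transcript of a gene, and protein length that of its longest protein.

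Some members lie on other genes, and the sources used here do not state whether reads were counted by strand. *Cox20* had 91.1% of its exon bases within *Hnrnpu*, which runs on the opposite strand and read between 32.0 and 42.4 FPKM. *Sco2* shared 66.2% with *Ncaph2* on the opposite strand and 68.3% with *Tymp* on its own strand. *Cox16* shared 56.8% with *Gm20498* on its own strand. On the opposite strand, *Cox11* shared 48.3% with *Tom1l1* and *Ndufaf2* 65.6% with the lowly expressed *B230220B15Rik*. Smaller shares on the opposite strand included *Ecsit* with 24.0% on *Gm16845*, *Coa6* with 14.1% on *Tarbp1* and *Cox15* with 9.04% on *Entpd7*. The values of these members are uncertain to that extent. *Cox19*, *Uqcc1*, *Ndufaf6*, *Nubpl*, *Sco1* and *Coa5* had no annotated gene over their exons, while *Coa3* and *Ndufaf3* had 9.26% and 2.64% of theirs covered.

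The promoters, windows of 300 bases around the RefSeq start, were found for 30 of the 35 members and searched on both strands. CCGGAAG, the core of ETS factors such as the nuclear respiratory factor GABP, was in 11 of 30 (36.7%), against 9.93% of 27025 genes with a promoter and 23.1% of the 7911 tested ones. The motif of NRF1 was in 4 of 30 (13.3%), against 5.19% and 12.7%. The median log2 fold change of the members was 0.18 with and 0.17 without the ETS letters, and 0.03 with and 0.20 without those of NRF1. Of the members without overlap, *Sco1* was the one that held the ETS letters, and none of those with a promoter held NRF1. In the stretches printed above, *Timmdc1* shows CCGGAAG or its complement at -33, -11 and -8 from the start and has another copy at -144.

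Many genes of mitochondrial proteins share a short promoter region with a neighbour on the other strand. Of the 35 members, 12 (34.3%) had a protein-coding neighbour that starts within 1000 bases in the other direction, against 18.6% of 9595 tested coding genes. *Surf1* and *Surf2* start 163 bases apart, and *Surf2* was at 48.7, 40.0 and 49.6 FPKM in oEV-EMT against 37.1, 32.9 and 28.7 in oEV-ctrl, without overlap (limma unadjusted p = 0.0426), while *Surf1* overlapped. *Ercc8*, which starts 108 bases from *Ndufaf2*, was also without overlap and higher, at 6.63, 4.90 and 5.20 FPKM against 4.05, 3.95 and 4.79 (limma unadjusted p = 0.177), while *Ndufaf2* overlapped and its fold change was negative. These are values as deposited, in which 18.1% of all tested genes were without overlap and higher. With median-of-ratios rescaling the groups overlapped for both *Surf2* and *Ercc8*. *Sco1* starts 76 bases from *Adprm* and *Coa5* 36 bases from *Unc50*, and in both pairs the neighbour overlapped between groups.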

How the data were processed

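RNA of 6 pools of blastocysts was sequenced after poly(A) selection. The authors aligned the reads, assembled transcripts with StringTie (mm10 per the labels) and deposited 1 value per gene and library. The methods speak of TPM, but the deposited values sum to more than TPM can in every library and were taken as FPKM, scaled by the authors to transcript length and library size. FPKM keep no read totals, so no count test was possible. The aligner and its version are not given in the sources used here.

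The filter asked for 1 FPKM in 3 or more libraries. A linear model of log2(FPKM + 1) on the group was made in limma 3.58.1 under R 4.3.3 (trended, robust variance, Benjamini-Hochberg over all genes). The thresholds were an adjusted p of at most 0.05 and a log2 fold change of at least 1. The fit was tested on simulated data. Depth was derived from the lowest steps of values in single-transcript genes over 1500 bases, and gene models came from GENCODE M21 (55141 of 55487 identifiers matched), on the same GRCm38 assembly as mm10. Estimated fragments per member rest on this derived depth and on the length of the shortest annotated coding transcript, and cover no error of their own.

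The members and lists were chosen with earlier results of these data known. Members named in full were those without overlap or with an unadjusted p of at most 0.05, and in each complex those with the highest and lowest fold change and level. Others that are named with values were chosen after these were seen. Alternatives covered scaling, filter, pseudocount, variance model, replicate block and leaving out libraries. Cysteine motifs of the proteins were not analysed here. Plots used Python 3.11.15 and matplotlib 3.10.9.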

Additional observations from a re-analysis of the deposited data

How the results depend on the processing

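Under all 15 alternatives 0 of the 35 members passed an adjusted p of 0.05 (limma, Benjamini-Hochberg), and *Cox19* and *Uqcc1* stayed above 0, with adjusted p-values of 0.113 to 0.609 and 0.121 to 0.625. At an unadjusted p of at most 0.05, the values as deposited gave 3 members, upper quartile scaling 1, weights for library quality (chosen after seeing the data) 6, and leaving out 1 library each 1 to 4. Members without overlap numbered 8, and 10 to 15 in either direction when 1 library was left out, which makes separation easier to reach. Without a filter on low values, which lowers the median of all genes to 0.02, the relative medians rose to 0.14 for all members and to 0.19, 0.092 and 0.15 for complexes I, III and IV. Leaving out 1 library moved the relative median of complex I between -0.095 and 0.10. It was negative without oEV-EMT 2 (-0.0047), oEV-EMT 3 (-0.095), oEV-ctrl 2 (-0.06) or oEV-ctrl 3 (-0.05), and with library quality weights (-0.04).

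Over all genes, 0 passed both thresholds as deposited, 4 with an FPKM of at least 1 in every library, 104 with library quality weights, and 0 to 16 when 1 library was left out. With the replicate number as a block 21 genes passed, and again 0 members passed the adjusted and 3 the unadjusted threshold, but not the same 3, since *Coa3* left them (limma adjusted p = 0.406). Libraries with the same number did not deviate together (correlations of 0.12, -0.04 and 0.04), so the number was not taken as a pairing.

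Changes near 0 turned sign. *Uqcc3* went to -0.11 with median-of-ratios and -0.085 with upper quartile scaling. *Cox17* went to 0.056 and *Cox15* to 0.042 when all libraries were scaled to one sum, and *Cox11* to 0.11 with library quality weights. When 1 library was left out, *Cox17* ranged from -0.24 to 0.12, *Cox15* from -0.10 to 0.12 and *Cox11* from -0.32 to 0.018. The causes were not tested. With 3 libraries a group, an exact permutation test cannot give a p below 0.1.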
